A study of Homo sapiens with 120 samples.

Results

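SOX17, FOXA1, FOXA2, FOXA3, FOXQ1, CXCR4, PRDM1 and CST1 are 8 genes linked to definitive endoderm, the germ layer that gives rise to the gut, liver, pancreas and lungs. They were chosen by name from the 62703 genes of the count table and followed through every library of the study. The study sequenced RNA of H1 cells, which are an embryonic stem cell line of human origin, in 120 libraries to examine the long non-coding RNA gene LNCPRESS1 (lncPRESS1). The differentiation arm holds 96 libraries: H1 cells labelled KO, H1 cells labelled ΔATG and unedited H1 cells (WT), each at day 0 and on days 1 to 5 of 3 protocols. Endo is a commercial definitive endoderm kit, BMP4 is a treatment with bone morphogenetic protein 4 towards mesoderm, and SMADi is a neural induction kit with SMAD inhibition. The overexpression arm holds 24 libraries of H1 cells labelled with lncPRESS1, lncPRESS1 ΔATG, lncSIRP or an empty vector, at stages labelled early, middle and late.

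All groups are H1 cells, and each group has 2 libraries, a and b. The name ΔATG stands for a lost start codon in lncPRESS1. The nature of lncSIRP, the days of the 3 stages and the number of clones behind each edit are not stated in the labels, so an edited line may be 1 clone. The labels do not state that libraries a and b came from separate cultures, so the p-values measure the spread between these libraries, which may be technical. In such bulk RNA, fewer cells expressing a gene and less RNA of it per cell cannot be told apart.

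All 8 are protein-coding genes in the GENCODE 29 annotation of GRCh38, and all passed the filter on low counts in both arms. FOXA2 (ENSG00000125798) lies at chr20:22581005-22585455 on the minus strand, next to the non-coding gene LINC00261 at chr20:22547671-22578642. CST1 (ENSG00000170373) lies on the same chromosome at chr20:23747553-23751268 on the minus strand. FOXA1 (ENSG00000129514) lies at chr14:37589984-37596059 on the minus strand, FOXA3 (ENSG00000170608) at chr19:45863989-45873797 on the plus strand and CXCR4 (ENSG00000121966) at chr2:136114349-136118165 on the minus strand. FOXQ1 (ENSG00000164379) at chr6:1312440-1314748 and PRDM1 (ENSG00000057657) at chr6:106086320-106109939 are both on the plus strand. SOX17 (ENSG00000164736) is on chromosome 8. FOXA1 overlaps TTC6 and PRDM1 overlaps ATG5 on the opposite strand, and FOXA2 overlaps the annotated gene AL121722.1 on its own strand. The use of strand in the counting is not stated, so reads of these pairs may be shared.

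Definitive endoderm forms in the primitive streak under high Nodal signalling, which culture protocols replace with activin. SOX17 is the transcription factor that sets the endoderm programme in human cells. FOXA1, FOXA2 and FOXA3 are forkhead factors that open chromatin at endoderm and liver genes, and FOXQ1 is a more distant forkhead factor. PRDM1 is a transcriptional repressor that also works in primordial germ cells and B cells. CXCR4 is the receptor of the chemokine CXCL12 and is widely used to sort definitive endoderm. CST1 encodes cystatin SN, a secreted inhibitor of cysteine proteases.

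Promoters of 5 of the genes, whose courses differ, are shown as the 250 bases before the annotated start, read on the gene's own strand from RefSeq (GRCh38.p14). Capitals mark matches, on either strand, to a forkhead motif (TGTTTNC) or a TATA box (TATAAA), and overlapping TATA matches run together. The windows are chr14:37595250-37595499 for FOXA1, chr6:1311848-1312097 for FOXQ1, chr2:136118150-136118399 for the first of 3 listed CXCR4 starts, chr19:45864076-45864325 for FOXA3 and chr6:106098691-106098940 for the second of 2 listed PRDM1 starts, the one with motif matches.
FOXA1: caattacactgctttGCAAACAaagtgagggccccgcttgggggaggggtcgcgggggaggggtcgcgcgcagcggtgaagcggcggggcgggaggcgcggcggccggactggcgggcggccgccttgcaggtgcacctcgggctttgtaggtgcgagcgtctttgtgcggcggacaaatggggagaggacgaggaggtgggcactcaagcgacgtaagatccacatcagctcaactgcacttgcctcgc
FOXQ1: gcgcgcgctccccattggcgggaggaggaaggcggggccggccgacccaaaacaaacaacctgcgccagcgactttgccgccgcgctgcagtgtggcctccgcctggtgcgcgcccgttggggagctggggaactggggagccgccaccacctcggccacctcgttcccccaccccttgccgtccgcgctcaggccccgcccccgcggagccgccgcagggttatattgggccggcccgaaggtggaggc
CXCR4: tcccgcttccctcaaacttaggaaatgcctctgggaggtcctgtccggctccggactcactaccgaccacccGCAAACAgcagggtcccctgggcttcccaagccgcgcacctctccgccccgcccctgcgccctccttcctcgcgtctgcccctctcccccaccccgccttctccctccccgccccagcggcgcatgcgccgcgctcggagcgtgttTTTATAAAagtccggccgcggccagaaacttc
FOXA3: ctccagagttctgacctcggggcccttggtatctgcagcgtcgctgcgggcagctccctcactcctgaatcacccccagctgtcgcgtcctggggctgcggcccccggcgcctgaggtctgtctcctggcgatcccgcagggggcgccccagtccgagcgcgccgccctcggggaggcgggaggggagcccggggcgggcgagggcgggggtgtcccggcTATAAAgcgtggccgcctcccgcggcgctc
PRDM1: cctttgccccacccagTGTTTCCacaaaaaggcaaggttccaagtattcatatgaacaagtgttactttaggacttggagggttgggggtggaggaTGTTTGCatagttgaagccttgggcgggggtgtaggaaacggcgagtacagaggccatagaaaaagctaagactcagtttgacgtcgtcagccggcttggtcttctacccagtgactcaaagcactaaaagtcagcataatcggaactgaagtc

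The forkhead motif had 1 match in the FOXA1 window, 1 in this CXCR4 window and 2 in this PRDM1 window, and 15.5% of 35116 RefSeq promoters of this length held it. The TATA box matched in the CXCR4 and FOXA3 windows, against 10.7% of promoters. Neither of 2 further motifs, a GATA motif (AGATAA, in 9.17% of promoters) and a FOXH1 motif (AATCCAC, in 1.97%), had a match in the 5 windows. The other listed windows of CXCR4 and PRDM1 had no match to any of these motifs. The PRDM1 window was picked for its matches, so the share of all promoters is no test of it. These are letter matches only.

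Library totals were 38298603 to 71219834 counts during differentiation and 40113893 to 65466595 with overexpression. Levels are given as CPM, the count of a gene scaled to a common TMM-adjusted library total. A gene was called when edgeR's quasi-likelihood test gave an adjusted p under 0.05 over all tested genes, 25821 of them in the 96 differentiation libraries and 23300 in the 24 overexpression libraries. The targeted gene LNCPRESS1 was at 13.2 and 5.60 CPM in KO cells, 53.1 and 35.2 CPM in ΔATG cells and 21.4 and 40.6 CPM in WT cells at day 0, and KO was lower than WT by test (log2 fold change -1.70, SE 0.22, adjusted p = 2.22e-07).

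In unedited cells all 8 genes were higher on day 5 of Endo than at day 0, where 31.2% of all tested genes were called higher. SOX17 was at 0 and 0.0342 CPM at day 0, at 0.923 and 1.07 CPM on day 1 and at 566 and 525 CPM on day 2. It was at 654 and 634 CPM on day 3 and at 423 and 422 CPM on day 5. SOX17 therefore went from a few reads to its highest levels within the first 3 days, and its 2 libraries stayed close on each day from day 2.

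PRDM1 had a like course, with 0.182 and 0.185 CPM at day 0, 83.0 and 79.2 CPM on day 2, 116 and 105 CPM on day 3 and 61.9 and 59.8 CPM on day 5. Its rise by day 5 had a log2 fold change of 8.31 (SE 0.25, adjusted p = 2.36e-35). Day 5 was below day 4 for PRDM1 (log2 fold change -0.58), the only one of the 8 that fell between these days by test. Across the 48 groups of the differentiation arm, PRDM1 and SOX17 had a Pearson r of 0.949 in mean log2 CPM, as a description with no p, over groups that share cells and protocols.

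FOXA2 climbed on every day of Endo. It was at 0.105 and 0.124 CPM at day 0, 14.5 and 19.8 CPM on day 1, 76.6 and 69.6 CPM on day 2 and 382 and 378 CPM on day 5. Each of the 4 steps from day 1 to day 5 was called, although the last one (log2 fold change 0.44, adjusted p = 0.0123) lost its call in 5 of its alternatives. FOXA2 was the earliest of the strong risers, ahead of SOX17 and CXCR4 on day 1.

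CXCR4, FOXQ1 and FOXA1 followed later. CXCR4 was at 2.46 and 0.945 CPM at day 0, at 0.333 and 0.141 CPM on day 1, 138 and 143 CPM on day 2 and 1078 and 1114 CPM on day 5. FOXQ1 was at 3.91 and 3.59 CPM on day 2, 54.7 and 44.5 CPM on day 3 and 456 and 439 CPM on day 5. FOXA1 was at 1.65 and 1.70 CPM on day 2, 7.93 and 5.93 CPM on day 4 and 15.1 and 18.4 CPM on day 5. The receptor CXCR4 thus dipped below its stem cell level on day 1 (log2 fold change -2.83 against day 0) before it rose, while FOXQ1 and FOXA1 were still rising on day 4 by test.

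FOXA3 and CST1 differed from these courses. FOXA3 was already at 26.4 and 26.2 CPM in stem cells, stayed at 19.7 and 21.7 CPM on day 2 and stood at 62.2 and 59.8 CPM on day 3 and at 56.6 and 57.7 CPM on day 5. Its rise by day 5 was the smallest of the 8, with a log2 fold change of 1.12 (SE 0.08, adjusted p = 1.18e-18). CST1 went down first, with 1.95 and 1.38 CPM at day 0 and 0.0842 and 0.0240 CPM on day 2, and then up to 2.47 and 2.27 CPM on day 3 and 26.3 and 33.6 CPM on day 5.

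**Figure D1:**
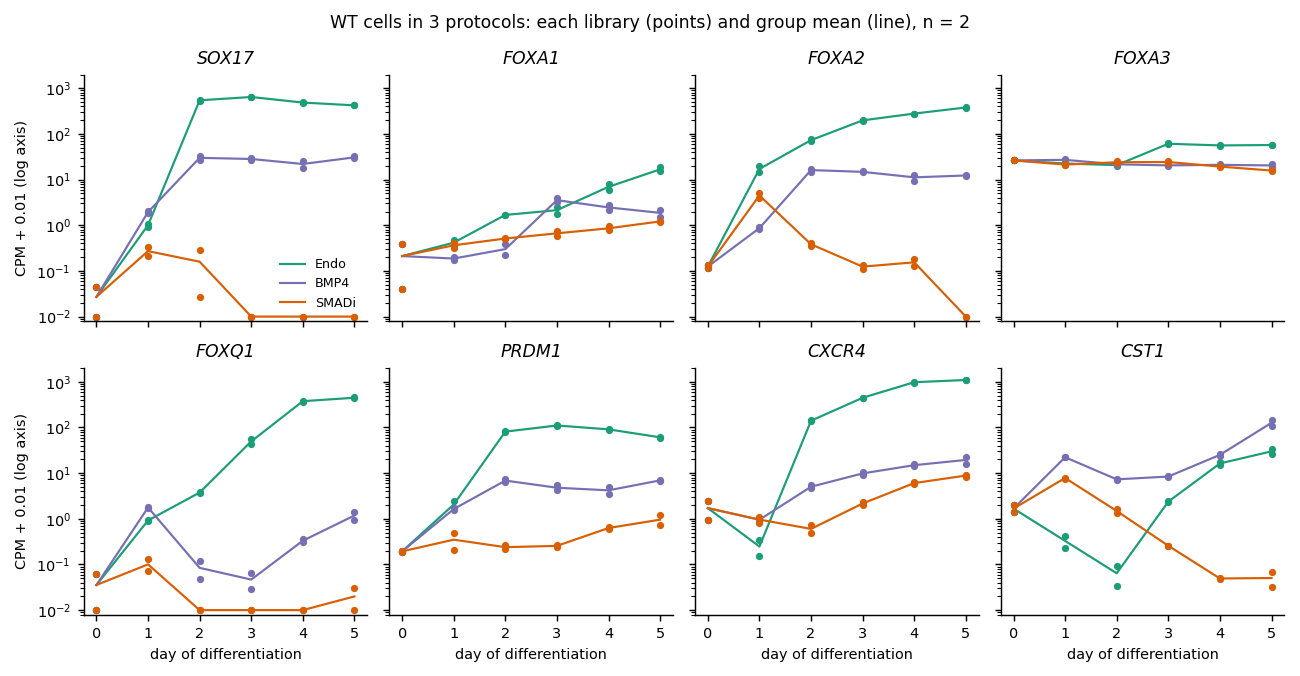
CPM plus 0.01 on a log axis against the day of differentiation for the 8 genes in WT cells, with Endo, BMP4 and SMADi in colour, points for the 2 libraries of each group and lines for their mean. SOX17, FOXA2, FOXQ1, PRDM1 and CXCR4 separate upwards in Endo, FOXA3 starts near 26 CPM in all 3 protocols, and CST1 ends highest in BMP4.

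The share of all genes called between consecutive days of Endo in WT cells was 46.5% from day 1 to day 2, 37.9% from day 2 to day 3, 20.5% from day 3 to day 4 and 11.6% from day 4 to day 5. Against these shares, 7 of the 8 genes were called between days 1 and 2, 6 between days 2 and 3, 5 between days 3 and 4 and 4 between days 4 and 5. Per kilobase of merged exons, the order of levels on day 5 of Endo was CXCR4 at 493 ± 11.3, FOXQ1 at 194 ± 5.21, SOX17 at 180 ± 0.484, FOXA2 at 146 ± 1.21, CST1 at 34.4 ± 5.89, FOXA3 at 26.1 ± 0.340, PRDM1 at 9.52 ± 0.239 and FOXA1 at 4.21 ± 0.592 CPM per kilobase (SD, n = 2). Neighbours in that order did not overlap between libraries. Merged exons count every annotated isoform, so the level of a gene with a long unused exon is understated.

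Other definitive endoderm genes moved with them: 16 of 17 listed genes were higher on day 5 of Endo than at day 0 and 1, SOX7, was lower (log2 fold change -0.81, adjusted p = 0.0491). The median log2 fold change was 7.42 over this list and 8.81 over the 8 genes, against -0.05 over all tested genes. Of 18 genes of the Nodal and activin pathway 13 were higher and 1 was lower. All 8 stem cell genes of the marker list were lower.

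Each of the 8 genes was also set beside the genes whose course was most alike over the 48 groups. FOXA2 came closest to LINC00261, its non-coding neighbour, with r = 0.935. CST1 had CST4, a cystatin gene of the same cluster, second with r = 0.900, after CFAP45 with r = 0.917. The closest gene was SLC5A9 for SOX17 (r = 0.970), RHOBTB3 for PRDM1 (r = 0.977), ZNF853 for CXCR4 (r = 0.968), TCEAL9 for FOXQ1 (r = 0.963), APOC1 for FOXA3 (r = 0.945) and CCDC167 for FOXA1 (r = 0.934). The closest gene depended on the measure: by Spearman's rho it was the same for PRDM1 and CST1 only, with SAMD3 for SOX17 (rho = 0.940), and over the 33 groups outside Endo it was the same for FOXA2 only, with ISL1 for SOX17 (r = 0.970). Among the 8 themselves, FOXA1 and CXCR4 had r = 0.908, whereas CST1 had r of 0.188 with FOXA1 and 0.196 with CXCR4.

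LINC00261 was at 516 and 486 CPM on day 5 of Endo in WT cells and at 0 CPM in both WT libraries at day 0. The ligand CXCL12 moved the other way from its receptor, with 0.782 and 0.997 CPM on day 5 of Endo and 62.9 and 69.5 CPM at day 0 (log2 fold change -6.22, SE 0.18, adjusted p = 3e-35). ACKR3, which scavenges CXCL12, was at 464 and 454 CPM on day 5 of Endo and at 1.60 and 2.10 CPM at day 0 (log2 fold change 7.95).

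The other protocols gave lower levels of most of these genes. On day 5, 7 of the 8 were higher in Endo than in BMP4 in WT cells, where 28.7% of tested genes were higher, and CST1 was lower, where 29.6% were lower. All 8 were higher in Endo than in SMADi on day 5, with 28.6% of tested genes higher. CST1 was at 26.3 and 33.6 CPM in Endo and at 106 and 147 CPM in BMP4 (log2 fold change -2.07, SE 0.14, adjusted p = 8.13e-20). CST1 was the only one of the 8 that ended highest under BMP4, and its libraries did not overlap between the protocols.

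Under BMP4 itself, 7 of the 8 genes were higher on day 5 than at day 0 in WT cells, with 22.9% of tested genes higher, and FOXA3 was lower, with 22.2% lower. SOX17 was at 26.9 and 33.1 CPM on day 2 and at 29.3 and 32.1 CPM on day 5 of BMP4. FOXA2 was at 14.9 and 17.4 CPM on day 2 and at 12.1 and 12.5 CPM on day 5. SOX17 and FOXA2 therefore reached a plateau by day 2 of BMP4, far below their Endo levels. FOXA3 was at 21.5 and 19.3 CPM on day 5 of BMP4 and at 26.4 and 26.2 CPM at day 0 (log2 fold change -0.36, SE 0.08, adjusted p = 0.000172).

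Under SMADi, 3 of the 8 genes (CXCR4, FOXA1 and PRDM1) were higher on day 5 than at day 0 in WT cells, with 26.8% of tested genes higher, and 3 (CST1, FOXA2 and FOXA3) were lower, with 26.7% lower. SOX17 and FOXA2 had no counts in either WT library on day 5 of SMADi. Set against a floor of 3 counts per library, SOX17 was at least 7396-fold higher in Endo than in SMADi on day 5, and FOXA2 at least 6646-fold. FOXA2 appeared briefly, with 4.98 and 3.99 CPM on day 1 of SMADi and 0.405 and 0.341 CPM on day 2.

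The edited lines were compared with WT on each day and as an average over days 1 to 5 of a protocol. KO and ΔATG share the WT libraries, so their differences from WT are not independent of each other. Before differentiation none of the 8 genes was called in KO, with 4.89% of all tested genes called, and 2 were called in ΔATG, with 5.5% called. At an unadjusted p under 0.05, 1 of the 8 differed in KO at day 0, and DESeq2 called 0. CXCR4 was at 0.613 and 0.623 CPM in ΔATG and at 2.46 and 0.945 CPM in WT (log2 fold change -1.46, SE 0.28, adjusted p = 0.000399), and without the first WT library the value was -0.61 (adjusted p = 0.587). FOXA3 was at 34.7 and 28.1 CPM in ΔATG and at 26.4 and 26.2 CPM in WT (log2 fold change 0.26, SE 0.08, adjusted p = 0.0421), and this call was lost in 6 of 10 alternatives.

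In Endo the edited lines made SOX17, FOXA2 and CXCR4 at levels near WT, while FOXA1 was higher and FOXQ1 lower in both. On average over days 1 to 5, FOXA1 and FOXA3 were higher in KO, with 6.76% of tested genes higher, and FOXQ1 was lower, with 8.04% lower. In ΔATG FOXA1, FOXA2 and FOXA3 were higher, with 16.6% of tested genes higher, and FOXQ1 and SOX17 were lower, with 17.2% lower. The median log2 fold change of the 8 was 0.14 in KO and 0.10 in ΔATG, against 0.00 and 0.02 over all tested genes.

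FOXA1 was higher than WT in both edited lines from day 3, and in ΔATG from day 2. On day 3 it was at 9.86 and 8.90 CPM in KO, 12.8 and 14.1 CPM in ΔATG and 1.79 and 2.47 CPM in WT. On day 5 it was at 30.1 and 26.4 CPM in KO, 43.5 and 44.4 CPM in ΔATG and 15.1 and 18.4 CPM in WT. Every edited library was above every WT library on days 2 to 5, and on day 1 the libraries overlapped in KO and lay below WT in ΔATG. The average log2 fold change was 0.93 in KO (SE 0.14, adjusted p = 6.85e-07) and 1.39 in ΔATG (SE 0.18, adjusted p = 1.13e-08).

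The size of the FOXA1 difference depended on the day in both lines (adjusted p = 0.00192 in KO and 2.13e-05 in ΔATG), tests that called 2.95% and 16.2% of all genes. It was largest on day 3, with a log2 fold change of 2.14 in KO (SE 0.21) and 2.67 in ΔATG (SE 0.20). On day 5 it was 0.75 in KO (SE 0.15, adjusted p = 0.000509), a call lost in 3 of 9 alternatives, DESeq2 among them (adjusted p = 0.0623). ΔATG was above KO on average (log2 fold change 0.46, SE 0.15, adjusted p = 0.0244), which was lost without one ΔATG library of day 1 (adjusted p = 0.312).

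FOXQ1 was lower in every edited library than in every WT library on all 5 days of Endo, as were 1.54% of all tested genes. On day 3 it was at 17.7 and 15.0 CPM in KO, 9.26 and 8.54 CPM in ΔATG and 54.7 and 44.5 CPM in WT. On day 5 it was at 318 and 269 CPM in KO, 212 and 201 CPM in ΔATG and 456 and 439 CPM in WT. The average log2 fold change was -1.32 in KO (SE 0.11, adjusted p = 2.96e-15) and -1.60 in ΔATG (SE 0.11, adjusted p = 2.44e-19).

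The deficit of FOXQ1 depended on the day in both lines, with its smallest values on days 4 and 5 in KO and its largest on days 2 and 3 in ΔATG. In KO its log2 fold change was -2.04 on day 1, -1.64 on day 2, -1.60 on day 3, -0.73 on day 4 and -0.61 on day 5, and the dependence on day had an adjusted p of 0.000112. In ΔATG it was -1.05 on day 1, -2.29 on day 2, -2.48 on day 3, -1.06 on day 4 and -1.12 on day 5, with an adjusted p of 1.67e-08 for the dependence. The ΔATG value of day 1 was not called (0.570 and 0.328 CPM in ΔATG, 0.940 and 0.879 CPM in WT). The KO calls of days 1 and 5 were each lost without one KO library of that day.

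**Figure D2:**
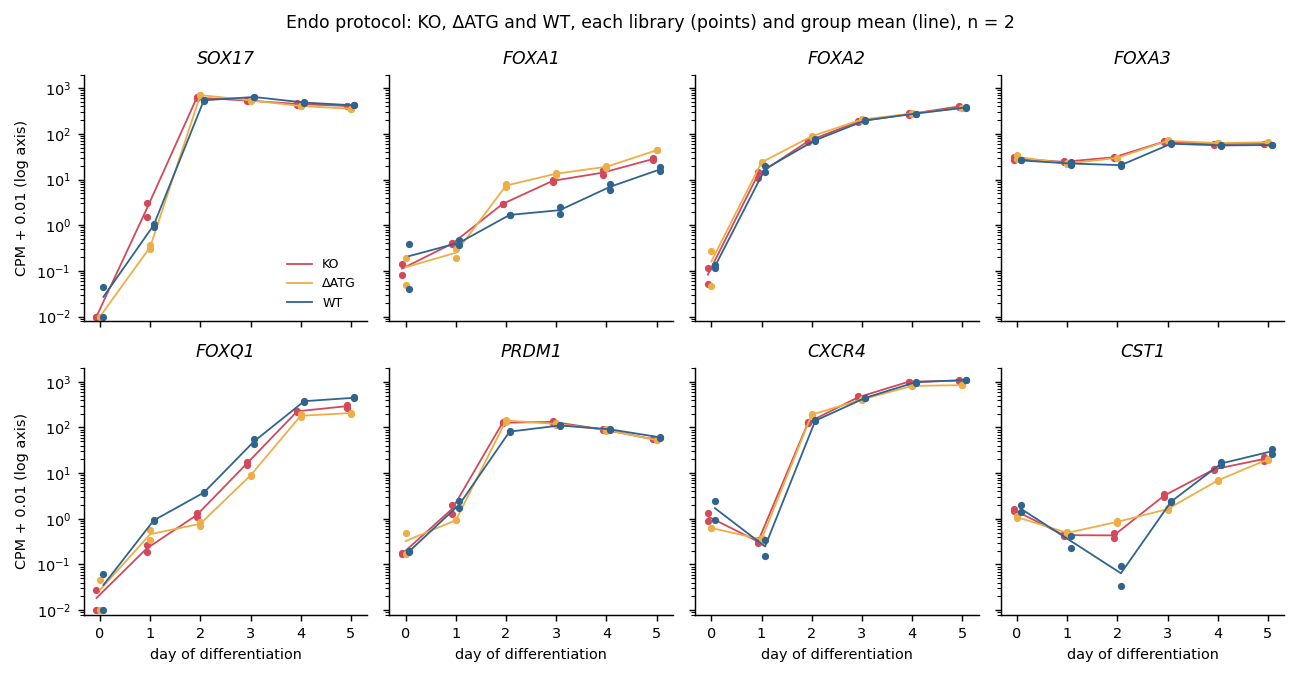
CPM plus 0.01 on a log axis against the day of Endo for the 8 genes, with KO, ΔATG and WT in colour, points for the 2 libraries of each group and lines for their mean. FOXA1 runs above WT in both edited lines from day 2 and FOXQ1 below it, while SOX17, FOXA2 and CXCR4 lie close together from day 2, with CXCR4 higher in ΔATG on day 2 and lower on day 5.

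SOX17 came to like levels in the 3 lines. On day 2 of Endo it was at 635 and 611 CPM in KO, 701 and 718 CPM in ΔATG and 566 and 525 CPM in WT, and on day 5 at 416 and 403 CPM in KO, 359 and 354 CPM in ΔATG and 423 and 422 CPM in WT. Its KO average differed from WT by a log2 fold change of 0.20 (SE 0.10, adjusted p = 0.22). The ΔATG average was -0.38 (SE 0.14, adjusted p = 0.0218) and the single-day value was largest on day 1 (-1.56, not called), where ΔATG was at 0.285 and 0.363 CPM and WT at 0.923 and 1.07 CPM. Without one or the other ΔATG library of that day the adjusted p was 0.0811 or 0.0604, and without one WT library of day 1 it was 0.0703.

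FOXA2 and CXCR4 were close to WT as well. FOXA2 was at 409 and 388 CPM in KO, 367 and 368 CPM in ΔATG and 382 and 378 CPM in WT on day 5. Its average log2 fold change was -0.11 in KO (SE 0.06, adjusted p = 0.268) and 0.15 in ΔATG (SE 0.06, adjusted p = 0.034), the second lost in 11 of 26 alternatives. CXCR4 was at 1102 and 1016 CPM in KO, 846 and 843 CPM in ΔATG and 1078 and 1114 CPM in WT on day 5. On day 2 CXCR4 was at 128 and 131 CPM in KO, 193 and 191 CPM in ΔATG and 138 and 143 CPM in WT, and was higher in ΔATG (log2 fold change 0.45, SE 0.11, adjusted p = 0.00284). On day 5 only the ΔATG value was called (log2 fold change -0.38, SE 0.11, adjusted p = 0.0105), and it was lost in 4 of 9 alternatives.

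PRDM1 and CST1 differed from WT on single days of Endo. On day 1 PRDM1 was called lower in ΔATG, a call lost in 1 of 9 alternatives, and its KO libraries overlapped with WT. PRDM1 was at 129 and 124 CPM in KO, 134 and 149 CPM in ΔATG and 83.0 and 79.2 CPM in WT on day 2, with log2 fold changes of 0.64 in KO (SE 0.13, adjusted p = 0.00041) and 0.81 in ΔATG (SE 0.13, adjusted p = 1.99e-06). The older edgeR method did not call the KO value (adjusted p = 0.057). From day 3 PRDM1 was called in neither line.

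CST1 was higher in the edited lines than in WT at the low point of its course. At day 0 it was called in neither line, with 1.64 and 1.51 CPM in KO, 1.11 and 1.04 CPM in ΔATG and 1.95 and 1.38 CPM in WT. On day 2 it was at 0.478 and 0.368 CPM in KO, 0.898 and 0.797 CPM in ΔATG and 0.0842 and 0.0240 CPM in WT. The log2 fold change was 2.82 in KO (SE 0.83, adjusted p = 0.0317) and 3.84 in ΔATG (SE 0.70, adjusted p = 3.01e-05). These WT libraries held few counts, the KO call was lost without any one of the 4 libraries, and without one or the other WT library the ΔATG value was 5.19 or 3.25. On day 5 CST1 was at 22.3 and 18.7 CPM in KO, 20.3 and 19.7 CPM in ΔATG and 26.3 and 33.6 CPM in WT. Both differences (log2 fold change -0.55 in KO and -0.58 in ΔATG) lost their call without the second WT library. In all, the KO call was lost in 4 of 9 alternatives and the ΔATG call in 1 of 9.

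FOXA3 was slightly higher in both edited lines. On day 2 it was at 30.2 and 31.3 CPM in KO, 30.4 and 29.5 CPM in ΔATG and 19.7 and 21.7 CPM in WT, one day before its rise in WT. The average log2 fold change was 0.21 in KO (SE 0.03, adjusted p = 6.06e-06) and 0.22 in ΔATG (SE 0.03, adjusted p = 5.85e-07). Over single days of Endo, 3.28%, 4.65%, 3.7%, 4.02% and 5.48% of all tested genes were called in KO on days 1 to 5, and 14.6%, 13.7%, 15.9%, 14.8% and 18.2% in ΔATG.

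Among the other definitive endoderm genes, 8 of 17 were higher and 2 lower in KO on average over Endo, and 5 were higher and 7 lower in ΔATG. The largest rise in KO was that of APOA2 (log2 fold change 0.59, SE 0.14). The largest fall was that of GATA4 in both, with -0.37 in KO (SE 0.07) and -0.91 in ΔATG (SE 0.07). Of the 18 Nodal and activin genes 2 were higher and 2 lower in KO, and 3 higher and 8 lower in ΔATG, with GDF3 lowest in both (-1.14 in KO, SE 0.11, and -1.18 in ΔATG, SE 0.11). LINC00261 was lower on average in both lines (-0.57 in KO, SE 0.12, and -0.64 in ΔATG, SE 0.12), while its neighbour FOXA2 was not. On day 1 LINC00261 was at 0.272 to 0.333 CPM in KO, 0.282 to 0.310 CPM in ΔATG and 1.34 to 1.45 CPM in WT. On day 3 it was at 120 to 133, 123 to 137 and 118 to 122 CPM in the same order. On day 5 it was at 412 to 434, 349 to 362 and 486 to 516 CPM. Mesoderm markers were lower for 7 of 12 genes in KO and 9 of 12 in ΔATG. They summed to 460 to 500 CPM in KO, 425 to 478 CPM in ΔATG and 812 to 839 CPM in WT on day 2, when the sum was highest, and on day 5 to 102 to 105 CPM in KO, 129 to 133 CPM in ΔATG and 97.9 to 99.6 CPM in WT. The part of these cells in the values above was not tested.

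In BMP4 the edited lines had less of 6 of the 8 genes. CST1, CXCR4, FOXA1, FOXA2, PRDM1 and SOX17 were lower on average in KO, with 15.4% of tested genes lower, and the same 6 were lower in ΔATG, with 8.78% lower. FOXA3 and FOXQ1 were called in neither line on average, although DESeq2 called FOXQ1 in KO (log2 fold change -1.02, adjusted p = 0.0776 with edgeR and 0.00148 with DESeq2). The median log2 fold change of the 8 was -1.14 in KO and -1.07 in ΔATG, against 0.00 over all tested genes in each. On single days edgeR called FOXQ1 lower in KO on days 1 and 4, lost in 3 and 2 of 9 alternatives. On day 5 it called FOXQ1 lower in both lines. FOXQ1 lay below WT in every library of both edited lines on days 1, 4 and 5, and overlapped with WT on days 2 and 3. On day 5, 7 of the 8 genes, all but FOXA3, were lower in each line, with 12.7% of tested genes lower in KO and 6.86% in ΔATG.

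SOX17 was at 4.88 and 4.68 CPM in KO, 15.7 and 7.18 CPM in ΔATG and 26.9 and 33.1 CPM in WT on day 2 of BMP4. On day 5 it was at 2.87 and 6.82 CPM in KO, 8.10 and 6.31 CPM in ΔATG and 29.3 and 32.1 CPM in WT. Every edited library was below every WT library on all 5 days. The average log2 fold change was -1.93 in KO (SE 0.12, adjusted p = 3.07e-20) and -1.29 in ΔATG (SE 0.11, adjusted p = 4.17e-14).

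FOXA2 and PRDM1 behaved alike in this respect, with every edited library below every WT library on all 5 days of BMP4. With SOX17 and CST1, 4 of the 8 genes had this pattern, against 0.782% of all tested genes. FOXA2 was at 3.25 and 5.80 CPM in KO, 4.34 and 3.46 CPM in ΔATG and 12.1 and 12.5 CPM in WT on day 5, and averaged -1.26 in KO (SE 0.11) and -1.40 in ΔATG (SE 0.12). PRDM1 was at 1.78 and 1.22 CPM in KO, 1.72 and 1.80 CPM in ΔATG and 6.98 and 6.88 CPM in WT on day 5, and averaged -1.78 in KO (SE 0.11) and -1.34 in ΔATG (SE 0.11). FOXA1, at most 3.93 CPM in any BMP4 library, averaged -0.86 in KO (SE 0.24, adjusted p = 0.00471) and -0.68 in ΔATG (SE 0.24, adjusted p = 0.0424), the second lost in 13 of 26 alternatives.

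CXCR4 was at 5.65 and 6.87 CPM in KO, 6.65 and 6.65 CPM in ΔATG and 16.2 and 22.6 CPM in WT on day 5 of BMP4. It averaged a log2 fold change of -0.98 in KO (SE 0.09, adjusted p = 2.28e-13) and -0.91 in ΔATG (SE 0.09, adjusted p = 6.9e-12). On day 1 its libraries overlapped between the lines, and from day 2 every edited library was below every WT library.

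On average over days 1 to 5 of BMP4, the largest called fall of the 8 was that of SOX17 in KO and of FOXA2 in ΔATG. CST1 had a wide gap on day 5, and the gap opened late. On day 1 it was at 18.9 and 21.4 CPM in KO, 15.6 and 16.7 CPM in ΔATG and 22.5 and 22.0 CPM in WT. On day 5 it was at 8.01 and 16.1 CPM in KO, 17.9 and 16.6 CPM in ΔATG and 106 and 147 CPM in WT, with log2 fold changes of -3.41 in KO and -2.87 in ΔATG. The dependence on day had an adjusted p of 2.25e-16 in KO and 3.65e-12 in ΔATG, tests that called 10.4% and 2.27% of all genes. On day 4 CST1 was at 8.15 and 10.1 CPM in KO, 10.4 and 9.61 CPM in ΔATG and 26.3 and 23.9 CPM in WT. Every edited library was below every WT library on all 5 days, and the WT libraries of day 5 stood furthest apart from the others.

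Other cystatin genes moved with CST1 in BMP4: counting CST1 itself, 4 of 7 tested genes of the cluster were lower in each line and none was higher. CST4 was at 0.124 and 0.714 CPM in KO, 0.430 and 0.710 CPM in ΔATG and 2.50 and 3.35 CPM in WT on day 5. The longest coding transcript of CST1 is 94.7% identical to that of CST4 and 91.3% identical to that of CST2, so reads may have been split between them.

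Over single days of BMP4, 1.27%, 8.2%, 9.86%, 15.6% and 22.3% of all tested genes were called in KO on days 1 to 5, and 0.929%, 2.44%, 5.6%, 5.12% and 11.1% in ΔATG. With a block for the library letter, which pairs the BMP4 libraries, the average calls of the 8 genes were unchanged in number. On single days the block ended the calls of SOX17 in KO (adjusted p = 0.136) and FOXA2 in ΔATG (adjusted p = 0.209) on day 1. Each of these calls was lost in 6 of 9 alternatives, the block among them.

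ΔATG had more SOX17 and PRDM1 than KO on average in BMP4, with 8.67% of tested genes higher. The log2 fold change was 0.64 for SOX17 (SE 0.13, adjusted p = 0.000349) and 0.44 for PRDM1 (SE 0.13, adjusted p = 0.0189), and neither was called in a fit of the compared libraries alone. Between the edited lines in Endo, FOXA1 and FOXA2 were higher in ΔATG, with 8.71% of tested genes higher, and SOX17 was lower, with 9.65% lower. None of the 8 was called between them at day 0, with 4.07% of tested genes called, or over SMADi, with 1.07% called.

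Of the other definitive endoderm genes, 11 of 17 were lower and 2 higher in KO over BMP4, and 8 were lower and 2 higher in ΔATG. GATA6 fell furthest in KO (log2 fold change -1.86, SE 0.12) and LHX1 in ΔATG (-1.04, SE 0.13), while OTX2 rose most in both (0.74 in KO, SE 0.05, and 0.66 in ΔATG, SE 0.05). Among the Nodal and activin genes 9 of 18 were lower and 3 higher in KO, and 7 lower and 3 higher in ΔATG, with CER1 the furthest down in both (-1.41 in KO, SE 0.09, and -0.78 in ΔATG, SE 0.09). Markers of other cell types moved too: 11 of 12 mesoderm genes were lower in each line, with a summed level on day 5 of 230 to 317 CPM in KO, 460 to 580 CPM in ΔATG and 924 to 1070 CPM in WT. The amnion and trophoblast list summed to 226 to 236 CPM in KO, 278 to 295 CPM in ΔATG and 427 to 439 CPM in WT, and no gene of either list was at 0 in these groups. Primitive streak genes were lower for 13 of 14 in KO and 12 of 14 in ΔATG, with a summed level on day 2 of 165 to 171 CPM in KO, 334 to 516 CPM in ΔATG and 812 to 838 CPM in WT. Stem cell genes were higher for 6 of 8 in each line and lower for none, with a summed level on day 5 of 5345 to 5744 CPM in KO, 5254 to 5273 CPM in ΔATG and 3762 to 4074 CPM in WT. The part of these cells in the values of the 8 genes was not tested.

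The difference from WT was set against itself between protocols. Endo minus BMP4 was positive and called for 7 of the 8 genes in KO, with 11.2% of tested genes higher, and for the same 7 in ΔATG, with 11.4% higher. FOXQ1 was the exception, with -0.30 in KO (SE 0.45, adjusted p = 0.781) and -0.72 in ΔATG (SE 0.44, adjusted p = 0.279). For SOX17 the difference of log2 fold changes was 2.13 in KO (SE 0.16, adjusted p = 7.84e-17) and 0.91 in ΔATG (SE 0.20, adjusted p = 0.000321). For FOXA1 it was 1.79 in KO (SE 0.29) and 2.06 in ΔATG (SE 0.30), since the gene was higher than WT in Endo and lower in BMP4.

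**Figure D3:**
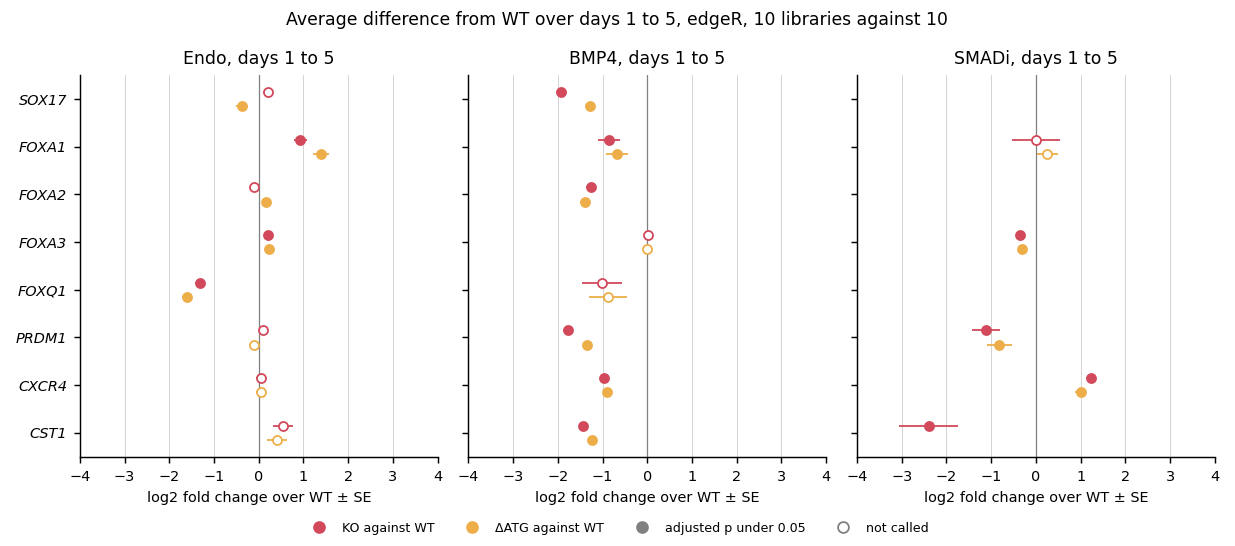
Average log2 fold change over WT with its SE for the 8 genes in Endo, BMP4 and SMADi, KO above ΔATG in each row, filled where the adjusted p was under 0.05. A gene is left out of a panel where a group had no counts in both libraries. Most values lie near 0 in Endo apart from FOXA1 and FOXQ1, and 6 genes have filled points left of 0 in BMP4.

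In SMADi the edited lines had more CXCR4 and less CST1, FOXA3 and PRDM1 than WT on average. CXCR4 was higher in KO, with 21.0% of tested genes higher, and CST1, FOXA3 and PRDM1 were lower, with 24.6% lower. The same 4 genes were called in the same directions in ΔATG, with 20.9% higher and 24.3% lower. These counts are close to the shares of all genes.

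CXCR4 was at 77.2 and 79.9 CPM in KO, 62.6 and 61.9 CPM in ΔATG and 8.40 and 9.26 CPM in WT on day 5 of SMADi. On day 3 it was at 5.2 and 5.23 CPM in KO, 4.75 and 5.50 CPM in ΔATG and 2.02 and 2.29 CPM in WT. From day 3 every edited library was above every WT library, and on day 1 every edited library was below. The day 5 log2 fold change was 3.15 in KO (SE 0.13, adjusted p = 1.56e-27) and 2.82 in ΔATG (SE 0.13, adjusted p = 3.11e-25), and the dependence on day had an adjusted p of 1.33e-14 in KO and 3.3e-13 in ΔATG, tests that called 32.7% and 29.5% of all genes.

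The ligand CXCL12 went down where the receptor went up. It was at 0.101 and 0.103 CPM in KO, 0.538 and 0.343 CPM in ΔATG and 7.41 and 6.93 CPM in WT on day 5 of SMADi, and averaged a log2 fold change of -2.69 in KO (SE 0.08) and -2.0 in ΔATG (SE 0.07). ACKR3 was called in neither line. Neuroectoderm markers, which these cells are meant to express, summed to 1579 to 1646 CPM in KO, 1428 to 1542 CPM in ΔATG and 1587 to 1594 CPM in WT on day 5, with 6 of 12 genes higher and 4 lower in each line on average. The stem cell list was lower for 7 of 8 genes in each line. Whether either list bears on CXCR4 was not tested.

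CST1 and FOXA2 differed at the start of SMADi. On day 1 CST1 was at 0.171 and 0.326 CPM in KO, 0.223 and 0.264 CPM in ΔATG and 7.61 and 8.01 CPM in WT, with log2 fold changes of -4.92 in KO (SE 0.32, adjusted p = 2.68e-19) and -4.97 in ΔATG (SE 0.31, adjusted p = 8.65e-20). FOXA2 was at 15.4 and 18.0 CPM in KO, 16.2 and 15.1 CPM in ΔATG and 4.98 and 3.99 CPM in WT on that day, with log2 fold changes of 1.90 in KO (SE 0.17, adjusted p = 6.76e-13) and 1.80 in ΔATG (SE 0.17, adjusted p = 3.44e-12). By day 3 FOXA2 was at most 0.128 CPM in every line. CST1 and FOXA2 thus differed from WT in opposite directions on the same day, with no overlap between edited and WT libraries for either gene.

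FOXA3 and PRDM1 were lower late in SMADi. For PRDM1 every edited library was above every WT library on day 3 and below on days 4 and 5. The ΔATG value of day 3 was called higher for PRDM1, a call lost in 1 of 5 alternatives. FOXA3 was at 9.07 and 8.91 CPM in KO, 9.16 and 9.25 CPM in ΔATG and 16.0 and 15.6 CPM in WT on day 5, with log2 fold changes of -0.81 in KO (SE 0.09, adjusted p = 4.38e-11) and -0.78 in ΔATG (SE 0.09, adjusted p = 3.09e-10). PRDM1 was at 0.0231 and 0.0330 CPM in KO, 0.0974 and 0.0823 CPM in ΔATG and 1.19 and 0.705 CPM in WT, which is a few reads per edited library. FOXA1 was at 3.62 and 3.80 CPM in KO, 2.82 and 2.80 CPM in ΔATG and 1.18 and 1.23 CPM in WT, and was higher in both lines on that day (1.63 in KO, SE 0.26, and 1.23 in ΔATG, SE 0.28). SOX17 and FOXQ1 never exceeded 0.320 CPM in any SMADi library and were called on no day. Over single days, 8.64%, 14.7%, 30.6%, 36.1% and 35.2% of all tested genes were called in KO on days 1 to 5, and 10.3%, 16.8%, 28.4%, 34.3% and 32.3% in ΔATG.

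**Figure D4:**
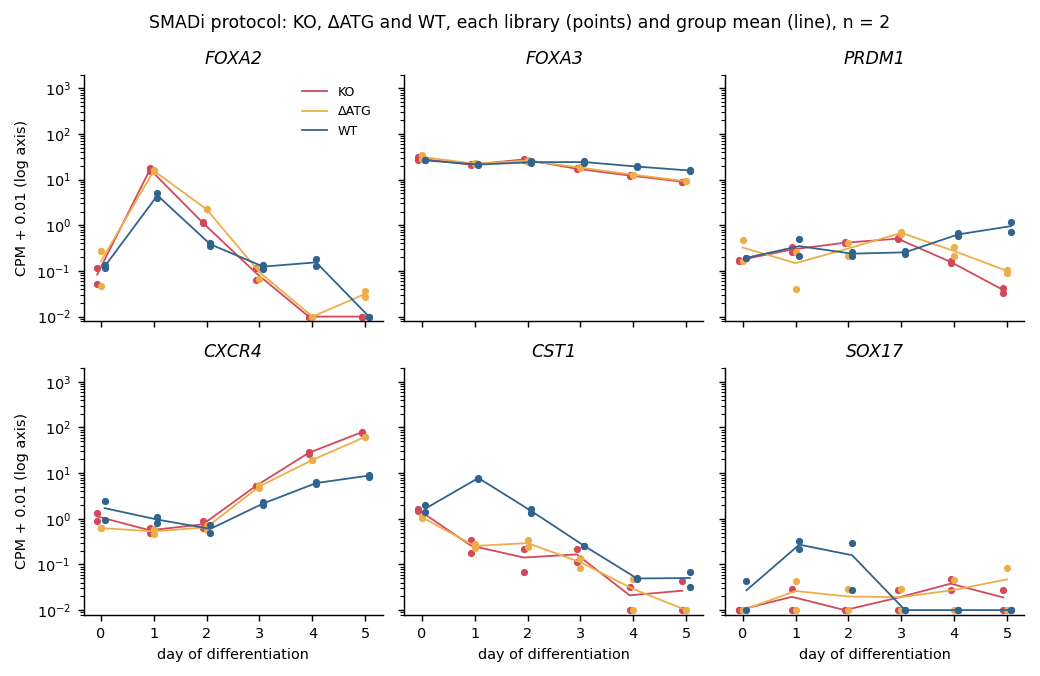
CPM plus 0.01 on a log axis against the day of SMADi for 6 of the genes, with KO, ΔATG and WT in colour, points for the 2 libraries of each group and lines for their mean. CXCR4 parts upwards from WT in both edited lines from day 3, CST1 is lower and FOXA2 higher on day 1, and FOXA3 is lower from day 3.

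In the overexpression arm the level of LNCPRESS1 did not follow every label. The early libraries labelled lncSIRP held 185 and 133 CPM of LNCPRESS1, like the lncPRESS1 ΔATG libraries with 144 and 156 CPM, whereas the early libraries labelled lncPRESS1 held 32.3 and 53.8 CPM and the early vector 29 and 30.2 CPM. The middle libraries labelled lncPRESS1 held 55.1 and 58.6 CPM, and the middle vector 47.8 and 36.3 CPM. At the late stage the labels and the levels agreed, with 153 and 151 CPM under lncPRESS1, 34.9 and 35.8 CPM under lncSIRP and 32.9 and 32.6 CPM under the vector. The early lncPRESS1 and lncSIRP groups and the middle lncPRESS1 group are therefore called the libraries labelled so.

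Except FOXA3, the genes were far higher in 2 middle groups. In the middle libraries labelled lncPRESS1, 7 of the 8 were higher than in the middle vector, with 29.3% of tested genes higher, and FOXA3 was lower, with 28.9% lower. In the middle libraries labelled lncSIRP the same 7 were higher, with 30.6% higher, and FOXA3 was lower, with 29.8% lower. Both comparisons share the vector libraries.

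CST1 was at 788 and 794 CPM in the middle libraries labelled lncPRESS1, 821 and 882 CPM in those labelled lncSIRP and 4.13 and 5.46 CPM in the vector. These were the highest CST1 levels of the study, although the 2 arms were scaled separately and no test was made across them. The log2 fold change was 7.36 for the label lncPRESS1 (SE 0.17, adjusted p = 2.79e-16) and 7.46 for the label lncSIRP (SE 0.17, adjusted p = 2.28e-16). CST4 was at 12.6 and 15.4 CPM, 17.2 and 18.2 CPM and 0.0188 and 0.0485 CPM in the libraries labelled lncPRESS1, lncSIRP and vector.

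CXCR4 was at 99.0 and 106 CPM under the label lncPRESS1, 116 and 127 CPM under lncSIRP and 3.06 and 3.45 CPM in the middle vector. FOXQ1 was at 77.3 and 78.6 CPM, 77.5 and 84.8 CPM and 1.82 and 2.12 CPM in the same order. SOX17 was at 46.3 and 48 CPM under lncPRESS1, 49.3 and 54.5 CPM under lncSIRP and 3.58 and 2.60 CPM in the vector. None of these libraries overlapped with the vector, and the values, on the separate scaling of this arm, lay above those of WT cells on day 5 of BMP4 and below those of day 5 of Endo.

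FOXA2, PRDM1 and FOXA1 rose less in absolute terms. FOXA2 was at 23.1 and 25.3 CPM under lncPRESS1, 26.2 and 25.1 CPM under lncSIRP and 6.5 and 4.84 CPM in the middle vector, with log2 fold changes of 2.10 (SE 0.20) and 2.18 (SE 0.19). PRDM1 was at 16.8 and 15.8 CPM, 15.6 and 18.2 CPM and 1.22 and 0.711 CPM in these groups. FOXA3 was the one gene that went down, with 8.11 and 8.49 CPM under lncPRESS1, 8.14 and 8.75 CPM under lncSIRP and 25.2 and 20.0 CPM in the vector (log2 fold changes of -1.44, SE 0.16, and -1.42, SE 0.16).

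Markers of other cell types were high in the same 4 libraries. The mesoderm list summed to 2050 to 2118 CPM under lncPRESS1, 1514 to 1574 CPM under lncSIRP and 252 to 275 CPM in the middle vector, with 11 of 12 genes higher under lncPRESS1 and 10 of 12 under lncSIRP. The extra-embryonic and visceral endoderm list, whose tissues also express several of the 8 genes, summed to 4941 to 4964, 5794 to 6033 and 791 to 798 CPM in the same groups, with 12 of 12 genes higher under both labels. The amnion and trophoblast list summed to 559 to 561, 507 to 511 and 19.9 to 20.4 CPM, and the stem cell list was lower for 8 of 8 genes under both labels. Of the 16 tested genes of the other definitive endoderm list, 13 were higher and 2 lower under each label. The part of these cells in the values of the 8 genes was not tested.

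The libraries labelled lncPRESS1 ΔATG went the other way. At the early stage FOXA2, FOXQ1 and SOX17 were lower than in the vector, with 15.0% of tested genes lower, and FOXA3 was higher, with 11.3% higher. At the middle stage CST1, CXCR4, FOXA2, FOXQ1 and SOX17 were lower, with 4.2% lower, and none was higher, with 3.15% higher. At the late stage the same 5 were lower, with 11.1% lower, and none was higher, with 10.0% higher.

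FOXA2 was at 0.126 and 0.263 CPM under lncPRESS1 ΔATG and at 6.5 and 4.84 CPM in the middle vector (log2 fold change -4.81, SE 0.41, adjusted p = 1.59e-06). FOXQ1 was at 0.0487 and 0.0956 CPM under lncPRESS1 ΔATG and at 1.82 and 2.12 CPM in the middle vector (-4.75, SE 0.39, adjusted p = 9.61e-07). SOX17 had no counts in either middle ΔATG library and 3.58 and 2.60 CPM in the vector, at least 64.9-fold lower against a floor of 3 counts per library. With CXCR4, FOXA1 and PRDM1, 6 of the 8 genes lay below the vector in every ΔATG library of every stage, as did 7.12% of all tested genes. Of the other definitive endoderm genes 13 of 16 were lower and 1 higher over the 3 stages, and LINC00261 had no counts in the middle ΔATG libraries. Over the 3 stages 13 of 14 primitive streak genes, 8 of 10 primordial germ cell genes, 5 of 12 mesoderm genes and 9 of 18 Nodal and activin genes were lower and none of them was higher. The primitive streak list summed to 27.8 to 34.3 CPM under lncPRESS1 ΔATG and to 212 to 237 CPM in the vector at the middle stage, with EVX1 at 0 in this ΔATG group. The part of these cells in the values of the 8 genes was not tested.

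At the late stage, where the labels and LNCPRESS1 levels agreed, CXCR4, FOXA3, FOXQ1 and SOX17 were higher in the lncPRESS1 libraries than in the vector, with 11% of tested genes higher, and none was lower, with 11.6% lower. SOX17 was at 4.72 and 4.59 CPM under lncPRESS1 and at 1.70 and 2.05 CPM in the vector (log2 fold change 1.32, SE 0.26, adjusted p = 0.00203). FOXQ1 was at 5.85 and 4.74 CPM under lncPRESS1 and at 2.34 and 2.71 CPM in the vector (1.07, SE 0.16, adjusted p = 0.000449). The CXCR4 call (0.84, SE 0.23) was lost without any one of its 4 libraries and the FOXA3 call (0.41, SE 0.14) in 6 of 9 alternatives.

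Late lncSIRP libraries were above the vector for 5 genes (CST1, CXCR4, FOXA2, FOXQ1 and SOX17), with 10.7% of tested genes higher, and below it for none, with 10.7% lower. SOX17 was at 6.56 and 9.70 CPM in them and at 1.70 and 2.05 CPM in the vector (2.13, SE 0.24, adjusted p = 3.6e-05). FOXA2 was at 12.5 and 12 CPM in them and at 6.82 and 5.2 CPM in the vector (1.03, SE 0.21, adjusted p = 0.00303). The CST1 call (0.60, SE 0.20, adjusted p = 0.0408) was lost in 5 of 9 alternatives.

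The early stage differed from the later ones. Under the label lncSIRP, CST1, FOXA2 and SOX17 were lower than in the early vector, with 5.65% of tested genes lower, and none was higher, with 5.12% higher. This CST1 call was lost in 4 of 9 alternatives. FOXA2 was at 1.05 and 0.526 CPM in these libraries and at 4.92 and 5.00 CPM in the early vector (-2.69, SE 0.32, adjusted p = 0.000231). Under the label lncPRESS1, CST1 was higher, with 0.142% of tested genes higher, and none was lower, with 0.27% lower. CST1 was at 4.43 and 2.56 CPM there and at 0.702 and 0.735 CPM in the vector (2.30, SE 0.29, adjusted p = 0.00288), and the call was lost without either vector library.

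Averaged over the 3 stages, 7 genes were higher and 1 lower under the label lncPRESS1, with 21.4% of tested genes higher and 24.4% lower. LNCPRESS1 was near its vector level in the early and middle libraries of that average, and without the first early library of this label 5 genes were called. Of the 8 calls, those of FOXA2 (log2 fold change 0.37), SOX17 (0.91) and FOXA1 were lost without it. Over all alternatives the FOXA1 call was lost in 8 of 19, and those of FOXA2 and SOX17 in 1 of 19 each. Under lncPRESS1 ΔATG 1 was higher and 7 were lower, with 11.3% higher and 14.5% lower. Of these ΔATG calls, that of FOXA1 was lost in 11 of 19 alternatives and that of PRDM1 in 1 of 19. Under the label lncSIRP, with high LNCPRESS1 in its early libraries, 5 were higher and 1 lower, with 23.8% higher and 26.4% lower. Without the early stage the lncSIRP average of SOX17 was 3.10 and that of FOXA2 1.61, both called, whereas the averages over all 3 stages, 0.36 and 0.17, were not.

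The vector itself moved between stages for 2 of the 8 genes. From the early to the middle stage CST1 was higher (4.13 and 5.46 CPM at the middle stage, 0.702 and 0.735 CPM at the early stage) and so was FOXQ1 (1.82 and 2.12 CPM, 0.446 and 0.485 CPM), with 0.0215% of tested genes called. Those are 2 of 5 genes called in all, and the FOXQ1 call was lost in 3 of 9 alternatives. Between the middle and the late stage none of the 8 was called, with 0.00858% of tested genes called, although 3 had an unadjusted p under 0.05.

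**Figure D5:**
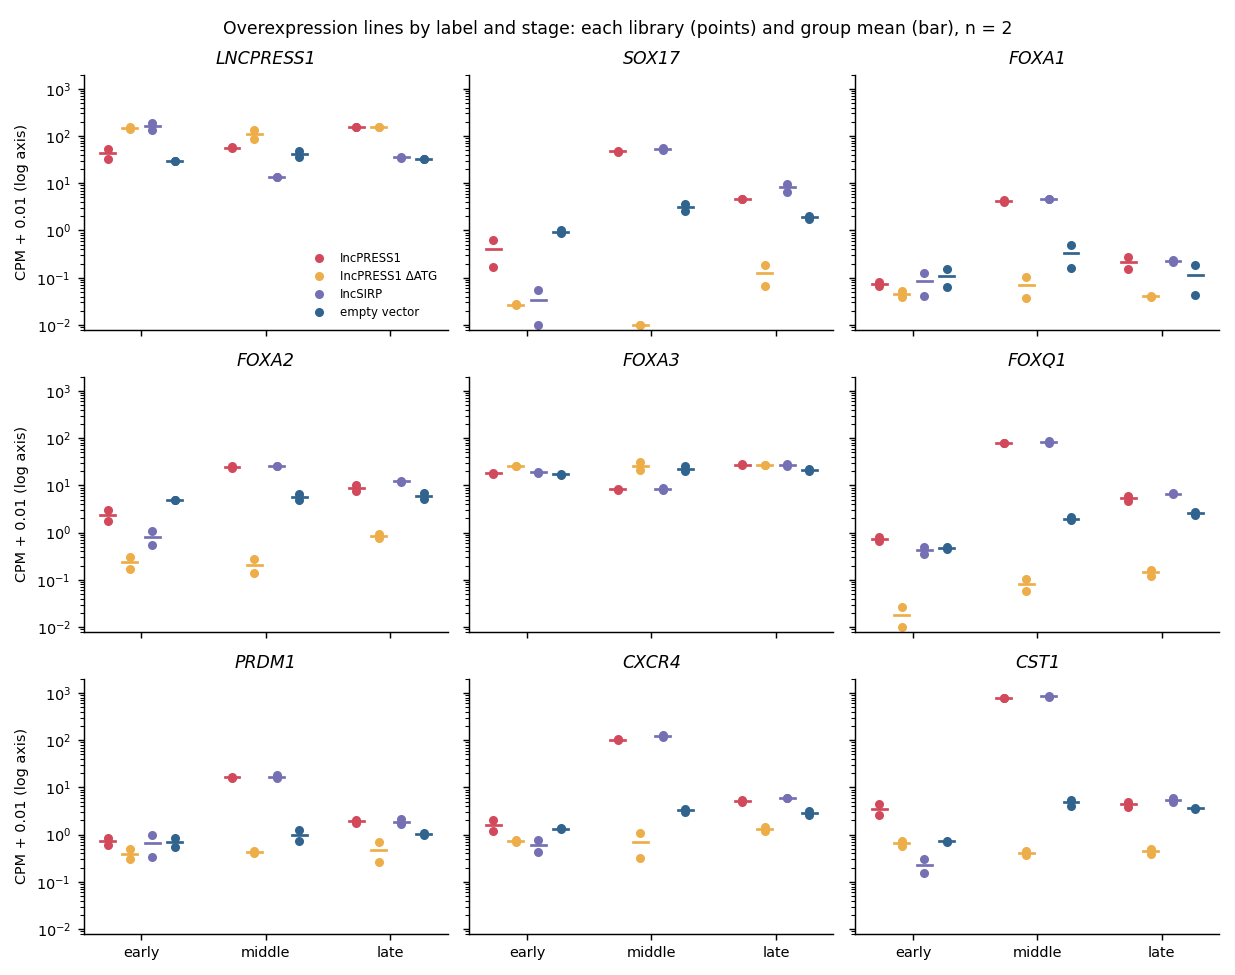
CPM plus 0.01 on a log axis for LNCPRESS1 and the 8 genes in the overexpression arm by stage, with lncPRESS1, lncPRESS1 ΔATG, lncSIRP and the empty vector in colour, points for the 2 libraries of each group and bars for their mean. The middle libraries labelled lncPRESS1 and lncSIRP stand above all others for the 8 genes except FOXA3, and lncPRESS1 ΔATG has the lowest mean for FOXA2, FOXQ1 and SOX17 at each stage.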

How the data were processed

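PolyA RNA of 120 H1 libraries was sequenced from stranded mRNA libraries, per the labels' protocols. The authors deposited estimated counts per gene, scaled for gene length per the labels, on GRCh38 per the submitters' processing notes. No source used here names the aligner, quantifier, annotation or use of strand. The expected counts were rounded to whole numbers. The 2 arms were fitted separately with edgeR 4.0.16 (R 4.3.3, limma 3.58.1): TMM scaling, filterByExpr by group, 1 quasi-likelihood fit of all groups and Benjamini-Hochberg adjustment over all tested genes. SE is the log2 fold change divided by the root of F. Averages weight the days or stages equally. Alternatives were DESeq2 1.42.0, limma voom, no filter, a block for the library letter, a fit of the compared libraries alone, leaving out each library in turn, and, chosen after seeing the data, edgeR's older quasi-likelihood method and a fit without the early stage. The fits were tested on simulated data.

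The 8 genes, the marker lists and the tests were chosen with earlier results of these data known. Named by rule are the 8 genes, LNCPRESS1, CST2, CST4, CXCL12, ACKR3, LINC00261, the called list member with the largest rise and fall, and the 3 genes most like a member by Pearson r. For 1 list, the gene with the largest rise is not reported here. Libraries a and b carry no stated pairing. Their same-letter deviations correlated in 3 of 3 pairs at day 0 (r 0.371 to 0.743) and 15 of 15 in BMP4 (0.179 to 0.643), which counts as paired from the values alone, and in 0 of 15 in SMADi, 1 of 15 in Endo and 4 of 18 in the overexpression arm. Depth limits genes near 0.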

Additional observations from a re-analysis of the deposited data

Results flagged for a closer look

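The difference between an edited line and WT changed with the protocol for 7 of the 8 genes. Endo minus BMP4, as a difference of log2 fold changes, was in KO 1.87 for PRDM1, 1.04 for CXCR4, 1.16 for FOXA2, 1.79 for FOXA1, 2.13 for SOX17, 1.97 for CST1 and 0.19 for FOXA3. In ΔATG it was 1.25 for PRDM1, 0.95 for CXCR4, 1.55 for FOXA2, 2.06 for FOXA1, 0.91 for SOX17, 1.64 for CST1 and 0.23 for FOXA3. All were called by edgeR's test of the difference, which called 11.2% of all tested genes higher in KO and 11.4% in ΔATG.

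The difference from WT also changed with the day. In BMP4 the adjusted p of this dependence (edgeR) in KO was 0.000458 for PRDM1, 3.27e-05 for CXCR4, 0.00628 for FOXA2, 8.47e-05 for SOX17 and 2.25e-16 for CST1, and in ΔATG it was 0.0136 for CXCR4 and 3.65e-12 for CST1. In SMADi it was in KO 8.92e-07 for PRDM1, 1.33e-14 for CXCR4, 0.00423 for FOXA2, 0.000271 for FOXA1, 0.0041 for CST1 and 1.1e-10 for FOXA3. In ΔATG SMADi cells it was 2.43e-05 for PRDM1, 3.3e-13 for CXCR4, 0.00175 for FOXA2, 0.00978 for FOXA1, 0.00399 for CST1 and 2.72e-09 for FOXA3. Of all tested genes, these tests called 10.4% in KO and 2.27% in ΔATG in BMP4. In SMADi they called 32.7% in KO and 29.5% in ΔATG.

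In Endo the dependence on day had an adjusted p (edgeR) in KO of 0.0162 for PRDM1, 0.00192 for FOXA1, 0.000112 for FOXQ1, 0.0061 for CST1 and 0.0154 for FOXA3. In ΔATG it was 2.77e-06 for PRDM1, 0.000403 for CXCR4, 2.13e-05 for FOXA1, 1.67e-08 for FOXQ1, 0.0368 for SOX17, 6.34e-07 for CST1 and 0.00667 for FOXA3. Of all tested genes, these tests called 2.95% in KO and 16.2% in ΔATG.

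In the overexpression arm every library of a construct lay on one side of the vector at one stage and on the other side at another, and these differences between stages were not tested. Of all tested genes, 32.9% under the label lncPRESS1 and 36.9% under the label lncSIRP lay on opposite sides at some pair of stages. Below the vector at the early stage and above it later were SOX17 under the label lncPRESS1 (log2 fold change 3.94 at the middle and 1.32 at the late stage) and under the label lncSIRP (4.08 and 2.13). The same held for FOXA2 in the libraries labelled lncPRESS1 (2.10 and 0.54) and lncSIRP (2.18 and 1.03), and in those labelled lncSIRP for CXCR4 (5.21 and 1.07) and CST1 (7.46 and 0.60). FOXA3 was below the vector at the middle stage (-1.44 under the label lncPRESS1 and -1.42 under the label lncSIRP) and above it at the early and the late stage (late values 0.41 and 0.38). Not called by edgeR were the early values of SOX17, FOXA2 and FOXA3 under the label lncPRESS1, the early values of CXCR4 and FOXA3 under the label lncSIRP, and the late values of FOXA2 under lncPRESS1 and FOXA3 under lncSIRP. The LNCPRESS1 level went against the labels lncPRESS1 and lncSIRP in the early libraries.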

How the results depend on the processing

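Of the 22 counts of called genes, 16 kept within 1.5 times of their value in every setting run for them. The count of ΔATG against KO in BMP4 was 2, and 0 in a fit of the compared libraries alone. ΔATG against KO at day 0 had 0 calls, and 1 with DESeq2. ΔATG against WT at day 0 had 2 calls, 1 without the filter on low counts, 1 with the older quasi-likelihood method and 0 in the compared libraries alone. Leaving out 1 library at a time gave 1 to 3 calls for ΔATG against KO in BMP4, 0 to 1 at day 0, 0 to 2 for ΔATG against WT at day 0, 3 to 5 for ΔATG against WT in Endo (5 with all libraries), 0 to 1 for KO against WT at day 0, and 5 to 8 for lncPRESS1 against the vector over 3 stages (8 with all libraries). The cause was not tested. Of single-gene values, leaving out a library kept 3855, ended 156 calls and added 21. DESeq2 kept 820, ended 8 and added 51. The replicate block kept 845, ended 16 and added 19, and moved no count beyond 1.5 times. Leaving out libraries was not run for SMADi. Genes at a few counts (SOX17, FOXQ1 and FOXA2 at day 0, most of them in SMADi) are limited by depth.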
